A study of Homo sapiens with 40 samples.

Results

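The genes described here are the 47 protein-coding genes, of 19962 listed, whose symbol begins with PSM, a letter from A to G and a number. PSMB8 and PSMB9 were left out by that rule. The set holds 7 alpha-ring and 7 beta-ring subunits of the proteasome core, 3 tissue-specific core subunits (PSMA8, PSMB10 and PSMB11), 6 ATPases and 11 non-ATPase subunits of the cap, 3 cap assembly chaperones, 4 core assembly chaperones, 4 activators and 1 inhibitor. PSMC3IP also carried such a symbol but is no proteasome subunit. It encodes a recombination factor named for its binding to PSMC3. PSMC3IP is left out of the summed levels and of the share of counts below. It is included in the other counts of genes, medians and promoter matches.

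The proteasome is the main ATP-driven protease of the cytoplasm and nucleus, and it degrades proteins that carry ubiquitin. Its core is a barrel of alpha rings, which gate the entrance, and beta rings, in which PSMB5, PSMB6 and PSMB7 hold the proteolytic sites. The cap recognises ubiquitin, removes it with the deubiquitinase PSMD14 and unfolds the substrate with its ring of PSMC ATPases. When proteasome activity is short, the transcription factor NFE2L1, released by VCP, NGLY1 and DDI2, is known to raise the transcription of most subunit genes together.

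The libraries came from RKO, an established human colorectal carcinoma cell line, in 3 derivatives that all carry Cas9 under doxycycline control, GFP, and BFP with guide RNAs against AAVS1 (sgAAVS1), IGF2BP2 (sgIGF2BP2) or IGF2BP3 (sgIGF2BP3). IGF2BP2 and IGF2BP3 are RNA-binding proteins, AAVS1 is a control locus, and each guide was present in a single derived line. In each line Cas9 was induced with doxycycline (Dox, 250 ng/mL, 72 hours) or cells received DMSO. The sgIGF2BP2 and sgIGF2BP3 lines were also transfected, without Dox, with a non-targeting siRNA (siControl) or with siRNA against their own gene (siIGF2BP2 or siIGF2BP3), at 75 nM for 48 hours. Every culture received s4U (250 µM, 2 hours), and each of the 10 groups had 4 libraries from separate culture wells of 1 line, so p-values measure the spread between wells.

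Library totals ranged from 10018181 to 24822807 counts (median 13468792), and the 47 genes without PSMC3IP held 0.789% to 0.902% of them. The replicate libraries of a group differed beyond counting noise in all 60 pairs (chi-square per gene 1.46 to 14.3). Replicate 2 of the Dox-treated sgIGF2BP2 line and replicate 3 of siIGF2BP2 stood apart most from their groups, so the counts of genes called that involve these are also given without them. IGF2BP2 fell from 85.3 ± 1.58 to 33.9 ± 3.50 CPM (counts scaled to the library's size; mean ± SD, n = 4) with Dox in its line and from 108 ± 4.10 to 30.2 ± 1.08 with siIGF2BP2. IGF2BP3 fell from 180 ± 4.09 to 56.2 ± 3.62 CPM with Dox and from 170 ± 4.78 to 24.7 ± 1.56 with siIGF2BP3. All 4 differences passed edgeR's test (largest adjusted p = 6.42e-33). IGF2BP3 also fell with Dox in the sgIGF2BP2 line (log2 difference −0.25, edgeR adjusted p = 2.93e-06). IGF2BP2 was higher with siControl than with DMSO in the sgIGF2BP2 line (log2 0.34) and the sgIGF2BP3 line (0.28). Of the fixed markers, KRT8 (41.6 to 76.5 CPM), KRT18 (114 to 218), EPCAM (12.3 to 15.99) and CDX2 (15.9 to 22.9) were present in every library. The epithelial markers VIL1, CDX1, CDH1 and KRT19 stayed at or under 0.305 CPM, as did the leukocyte marker PTPRC and the endothelial marker PECAM1, and the stromal marker COL1A1 reached at most 1.10 CPM.

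Of the 47 genes, 45 passed the filter on low counts. PSMA8, the testis form of an alpha subunit, had no count in any library, and PSMB11, the thymus form of PSMB5, had at most 4 counts in a library. Levels of the others differed widely when given per kb of transcript (CPM per kb, median length of the protein-coding transcripts). PSMA7 (610 CPM per kb), the cap scaffold PSMD2 (549) and PSMB7 (513) were highest. Over the 40 libraries PSMA7 lay between 482 and 636 CPM, PSMD2 between 1322 and 1566 and PSMB7 between 438 and 553, and the lowest library of each was a siIGF2BP2 library. By role, the median level over the members tested was 196 CPM per kb in the beta ring, 94.5 among the cap's non-ATPase subunits, 88.9 among the activators, 70.8 among the ATPases and 64.7 in the alpha ring. The cap assembly chaperones had a median of 68.4 CPM per kb and the core assembly chaperones of 41.7.

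The lowest levels belonged to PSMA2 (2.90 CPM per kb), PSMB10 (5.48), PSMD9 (7.17) and PSMA6 (10.6). In CPM over the 40 libraries, PSMA2 lay between 1.98 and 4.89, PSMB10 between 4.69 and 10.1 and PSMD9 between 13.9 and 19.2. PSMA2 and PSMA6 encode alpha-ring subunits, as does PSMA7, and the ring takes each alpha subunit in equal number. Each of these 4 genes shares exon bases on its own strand with another gene model of the annotation, and so does PSMA1. The shared part was 55.8% of all exon bases of PSMA6, 32.2% of PSMA1, 30.1% of PSMB10, 21.7% of PSMD9 and 14.6% of PSMA2. In that order the shared bases numbered 919, 801, 374, 827 and 781. The median transcripts had 895.5, 1505, 1218, 2307 and 1085 bases, and how much of each was shared was not counted. How reads in such stretches were counted is not given in the sources used here, so the levels of these 5 genes are uncertain. Ranked by level per kb among the 45, PSMA1 was at place 38 and the other 4 from 42 to 45. With the length of all exons in place of the median transcript, a choice made after seeing the data, the highest were PSMD2 (371 CPM per kb), PSMB4 (328) and PSMA7 (323), and PSMA2 remained the lowest at 0.59.

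Promoter sequence was available in the RefSeq table (GRCh38.p14, 250 bases before to 50 after the start) for 41 of the 47 genes; PSMA7, PSMB1, PSMB6, PSMB7, PSMD4 and PSMG3 had no entry. The letters TGACNNNGC, the core of the antioxidant response element to which NFE2L1 binds with a small MAF partner, were found on either strand in 14 of the 41 genes (34.1%), against 16.1% of all 27305 genes in the table. CCAAT, the NF-Y box, was found in 20 of 41 (48.8%) against 39.7%, and CCGGAAG, an ETS site, in 16 of 41 (39.0%) against 12.2%. Matches to different motifs were counted separately and may overlap. A match is a description of the letters and not of binding. The stretches below, 5′ to 3′ on the gene's strand, are from 7 of the genes that carry a TGACNNNGC match and are followed through the comparisons. PSMC4, PSMD1 and PSME4 also carry a match and are followed, but are not shown. In PSMC4 and PSME4 that match reads as its reverse complement. Capitals mark the match, which reads as its reverse complement in PSMC5.
PSMA4 (chr15:78540625-78540703, plus strand): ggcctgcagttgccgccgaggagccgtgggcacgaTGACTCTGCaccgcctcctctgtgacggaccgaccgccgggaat
PSMB3 (chr17:38752602-38752680, plus strand): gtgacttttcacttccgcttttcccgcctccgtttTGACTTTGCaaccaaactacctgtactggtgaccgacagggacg
PSMC5 (chr17:63827629-63827707, plus strand): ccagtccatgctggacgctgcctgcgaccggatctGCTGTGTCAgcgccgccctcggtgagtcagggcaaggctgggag
PSMD12 (chr17:67366699-67366777, minus strand): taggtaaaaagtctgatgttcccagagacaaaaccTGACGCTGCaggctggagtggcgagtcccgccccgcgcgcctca
PSMD5 (chr9:120843013-120843091, minus strand): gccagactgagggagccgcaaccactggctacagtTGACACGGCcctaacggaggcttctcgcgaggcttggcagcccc
PSME1 (chr14:24136073-24136151, plus strand): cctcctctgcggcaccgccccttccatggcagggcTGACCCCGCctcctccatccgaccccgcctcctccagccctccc
PSMG1 (chr21:39183591-39183669, minus strand): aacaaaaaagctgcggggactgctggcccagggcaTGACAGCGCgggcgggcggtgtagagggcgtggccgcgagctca

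Across the 10 groups the proteasome genes moved within a narrow band. For a tested gene, the highest group mean exceeded the lowest by a median of 1.19-fold (range 1.07 to 1.59), and the ratio was under 1.3 for 39 of 45. Differences of this size were detectable because wells differed little: the median within-group coefficient of variation was 4.15%. Between any of the 10 groups, 41 of the 45 differed (edgeR, adjusted p under 0.05 over all genes tested), beside 71.1% of all genes; PSME2, PSMA2, PSMD9 and PSMG2 did not pass. The lowest group was one of the 4 siRNA groups for 36 of the 45 genes, and the highest was a DMSO group for 28. Neither these counts nor the fold ranges were computed over all genes, so they cannot be called particular to proteasome genes.

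Summed over all members except PSMC3IP, the DMSO libraries held 8754 to 9018 CPM in sgAAVS1, 8857 to 9030 in sgIGF2BP2 and 8722 to 8864 in sgIGF2BP3. After Dox the sums were 8774 ± 121 CPM in sgAAVS1, 8433 ± 159 in sgIGF2BP2 and 8645 ± 88.2 in sgIGF2BP3 (mean ± SD, n = 4). With siControl they were 8243 ± 117 and 8252 ± 52.8 CPM in the sgIGF2BP2 and sgIGF2BP3 lines, with siIGF2BP2 7936 ± 364 and with siIGF2BP3 8039 ± 77.6. All 16 libraries of the siRNA groups lay below all 12 of the DMSO groups. In the sgIGF2BP2 line the Dox libraries also lay below those with DMSO, whereas in sgAAVS1 and sgIGF2BP3 the ranges with Dox and with DMSO overlapped. In the siIGF2BP2 group replicate 3 stood at 8463 CPM and the other 3 libraries between 7662 and 7888. In bulk RNA, fewer cells with the transcript and less of it per cell cannot be told apart.

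**Figure D1:**
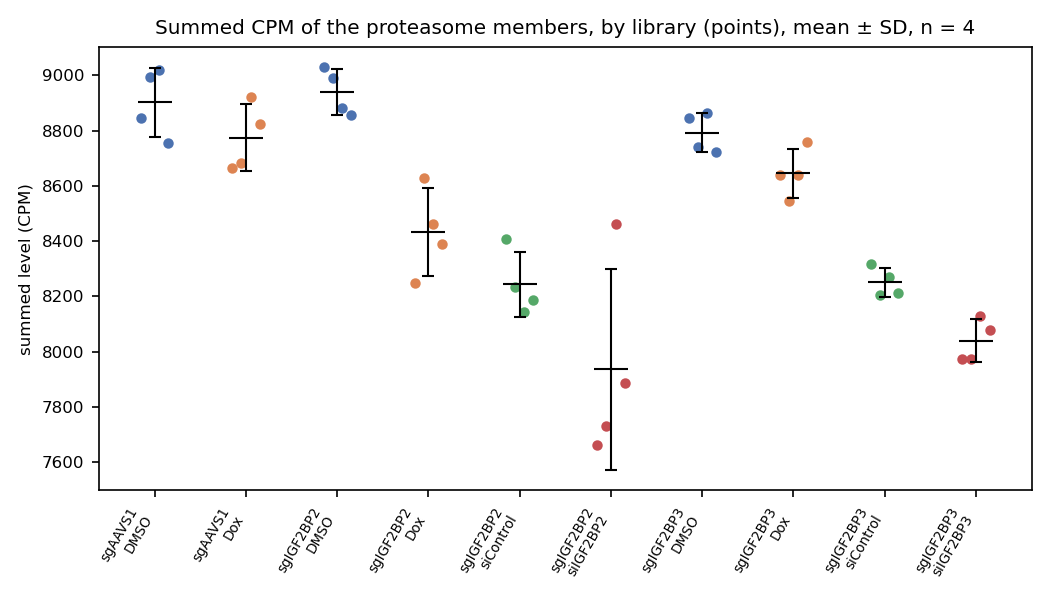
Summed level of all members except PSMC3IP in CPM, by library (points), with the group mean and SD (bars, n = 4); the axis does not start at 0. The 16 libraries of the siRNA groups all lie below the 12 DMSO libraries, and replicate 3 of siIGF2BP2 lies above the rest of its group at 8463 CPM.

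The comparison of siControl with DMSO within a line held the widest shift of these genes. The 2 groups differ in transfection, in vehicle and in the time under treatment, and these cannot be told apart. In the sgIGF2BP2 line 26 of 45 genes fell and 0 rose, beside 8.16% of all genes lower and 18.4% called in either direction. With siControl in sgIGF2BP3, 18 fell and 1 rose, beside 8.54% lower and 19.4% in either direction. The median difference of the 45 genes was −0.12 and −0.10 on the log2 scale, beside −0.0021 and −0.0043 for all genes. These 2 comparisons share no library, and 16 genes fell in both, which is 61.5% of the 26 and 88.9% of the 18. The overlap over all genes was not counted, so this one cannot be set against a background.

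All 6 ATPases of the cap fell in the sgIGF2BP2 line (median log2 difference −0.22), and PSMC3, PSMC4, PSMC5 and PSMC6 in the sgIGF2BP3 line (median over the 6 of −0.16). PSMC4 had 121, 125, 121 and 127 CPM with DMSO and 108, 101, 101 and 104 with siControl in the sgIGF2BP2 line. These do not overlap, as the rule for listing genes by library required, and the log2 difference was −0.25 (SE 0.038, edgeR adjusted p = 3.41e-07). Of the 26 genes called in that line, 18 were without overlap. PSMC4 fell by 0.16 in the sgIGF2BP3 line. PSMC6 had 65.1, 70.3, 69.3 and 68.3 CPM with DMSO and 53.8, 56.6, 53.5 and 56.3 with siControl in the sgIGF2BP3 line, again without overlap (log2 −0.31, SE 0.046, edgeR adjusted p = 4.05e-07). Its log2 difference in the sgIGF2BP2 line was −0.24. PSMC3 fell by 0.25 and 0.15 and PSMC5 by 0.21 and 0.18 in the 2 lines, and PSMC1 (−0.16) and PSMC2 (−0.18) were called in the sgIGF2BP2 line. PSMC1 (−0.11) and PSMC2 (−0.10) did not pass in the sgIGF2BP3 line, and the difference between the lines was not tested.

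In the core, 5 of 7 alpha subunits and 5 of 7 beta subunits fell in the sgIGF2BP2 line, and 4 and 3 in the sgIGF2BP3 line. PSMB3, a structural beta subunit on chromosome 17 (38752736 to 38764231, GRCh38), had 165, 165, 161 and 169 CPM with DMSO and 139, 141, 133 and 135 with siControl in the sgIGF2BP2 line. The groups do not overlap, and PSMB3 fell by 0.26 (SE 0.044, edgeR adjusted p = 4.17e-06) there and by 0.19 in the sgIGF2BP3 line. PSMB1 fell by 0.24 and 0.20, and PSMB2, whose beta subunit holds no active site, by 0.17 and 0.14. Of the 3 catalytic subunits, PSMB6 fell in the sgIGF2BP2 line (−0.16). PSMB5 (−0.05 and 0.03) and PSMB7 did not pass the test in either line. PSMA6 had the largest fold, from 10.5, 12.5, 10.96 and 10.9 to 8.67, 8.46, 8.69 and 8.44 CPM in the sgIGF2BP2 line (log2 −0.38) and from 12.3, 10.2, 10.8 and 8.61 to 7.72, 5.95, 7.01 and 7.55 CPM in the sgIGF2BP3 line (log2 −0.59, SE 0.12, edgeR adjusted p = 6.98e-05). Its libraries did not overlap in either line, but its counts are among the uncertain ones. PSMA1, uncertain for the same reason, fell by 0.20 in the sgIGF2BP2 line. It went from 41.3, 45.6, 46.0 and 47.0 to 38.1, 37.4, 34.4 and 37.9 CPM in the sgIGF2BP3 line, without overlap (log2 −0.28, SE 0.065, edgeR adjusted p = 0.000872). PSMA4 fell by 0.14 and 0.15, PSMA7 by 0.16 and 0.11, and PSMA5 by 0.14 in the sgIGF2BP2 line. PSMA2 (−0.35 and −0.36 on the log2 scale) and PSMA3 did not pass.

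Of the 11 non-ATPase subunits of the cap, 9 fell in the sgIGF2BP2 line and 6 in the sgIGF2BP3 line. The deubiquitinase PSMD14 went from 181, 165, 172 and 163 CPM to 152, 147, 152 and 150 (log2 −0.18) in the former and from 166, 167, 169 and 166 to 143, 140, 140 and 151 (log2 −0.22, SE 0.040, edgeR adjusted p = 1.74e-05) in the latter, with no overlap. PSMD1, a scaffold of the cap, fell by 0.09 and 0.18, PSMD6 by 0.19 and 0.18, PSMD12 by 0.12 and 0.16, and the ubiquitin receptor PSMD4 by 0.14 in both. PSMD2, PSMD3, PSMD8 and PSMD13 were called lower in the sgIGF2BP2 line and PSMD11 in the sgIGF2BP3 line. PSMD7 passed in neither. Of 14 alternatives for the sgIGF2BP2 line, PSMD1 and PSMD3 were lost in 7, PSMB4 in 6 and PSMD2 in 5. PSMA1, PSMD12 and PSMD13 were lost in 3, PSMA4, PSMA5, PSMC1 and PSMG1 in 2, and PSMB6 and PSMD8 in 1. For the sgIGF2BP3 line PSMA7 and PSMD11 were lost in 3 of 14, and PSMA4 and PSMD10 in 1.

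Among the genes that regulate or build the particle, 0 of the 4 activators passed edgeR's test in these 2 comparisons, nor did the inhibitor PSMF1; DESeq2 called 0 of them too. With an offset for GC content and length PSME3 was called in both lines and PSME4 in the sgIGF2BP3 line, and PSME3 was also called in the sgIGF2BP2 line without siControl replicate 1. PSME3 (−0.06 on the log2 scale in both) and PSME4 (0.09 and 0.08) had an unadjusted p under 0.05 in both lines. Of the chaperones, PSMG1 fell in the sgIGF2BP2 line (log2 −0.18), and PSMD10, also known as gankyrin, in the sgIGF2BP3 line (log2 −0.21). PSMG2, PSMG3, PSMG4, PSMD5 and PSMD9 passed in neither. PSMB10, the interferon-inducible form of PSMB7, rose in the sgIGF2BP3 line from 4.76, 5.01, 6.15 and 6.61 to 8.01, 7.22, 7.01 and 7.30 CPM (log2 0.39, SE 0.14, edgeR adjusted p = 0.0399). The groups did not overlap, but PSMB10 no longer passed when any of 6 of the 8 libraries was left out (adjusted p 0.0527 to 0.138), and its log2 difference in the sgIGF2BP2 line was 0.03. Of genes with a TGACNNNGC match in the promoter, 8 of 14 tested fell with siControl in the sgIGF2BP2 line, beside 14 of 25 without a match; in the sgIGF2BP3 line these were 6 of 14 and 9 of 25.

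**Figure D2:**
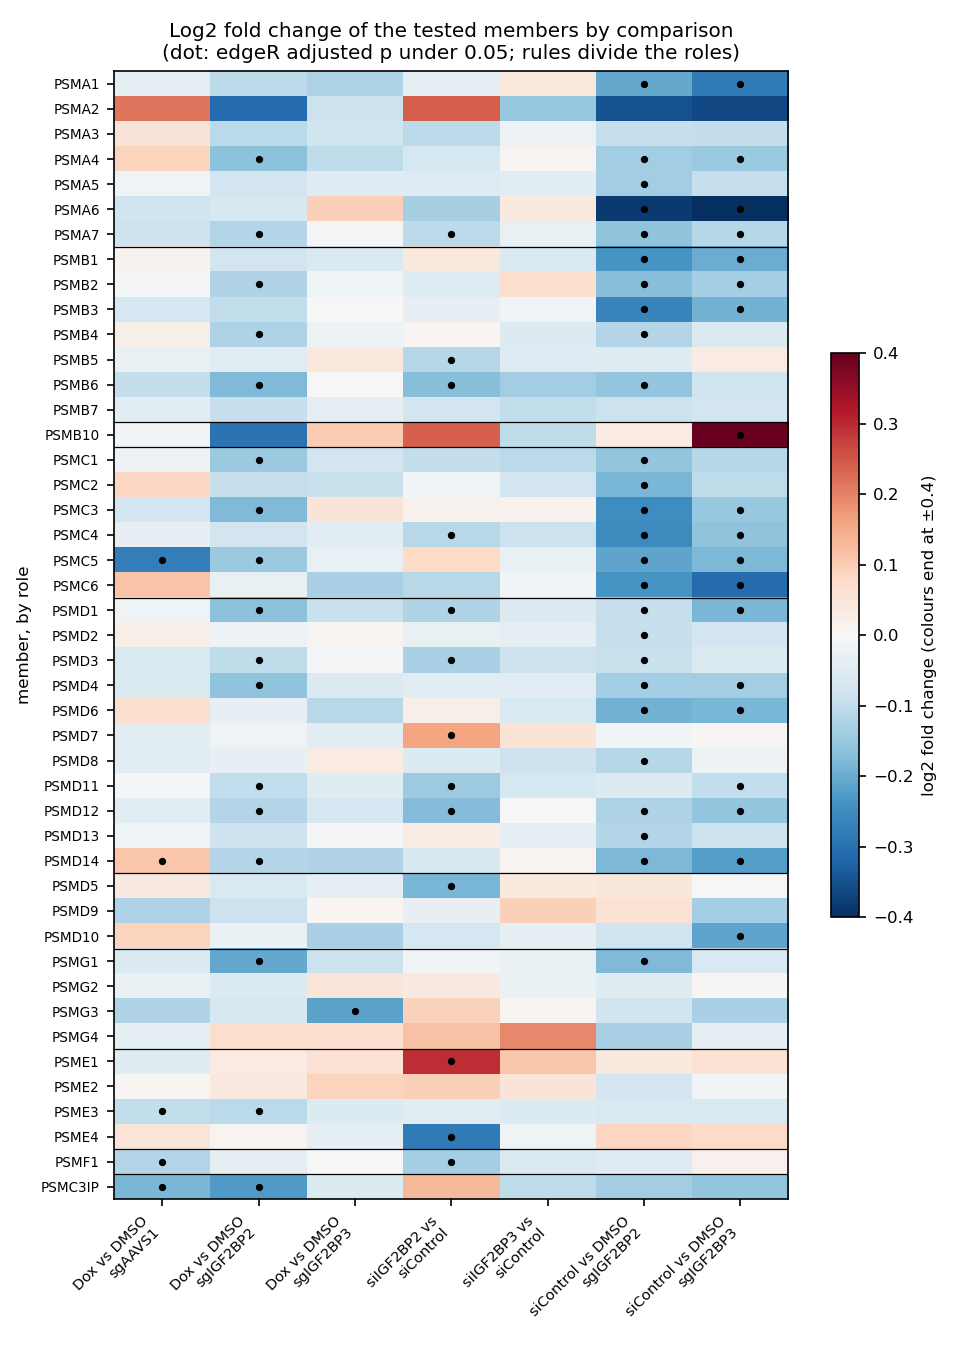
Log2 fold change of each of the 45 tested genes (rows, by role) in 7 comparisons (columns), with a dot where edgeR's adjusted p was under 0.05; colours end at ±0.4. The 2 right-hand columns, siControl against DMSO, hold 26 and 18 dots on blue cells, most of them among the core and cap genes and 0 among the activators.

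Dox treatment asks what the induced cut changed in each line. In the sgIGF2BP2 line 17 of 45 genes fell and 0 rose, beside 10.4% of all genes lower and 20.4% called in either direction. The median difference was −0.09 on the log2 scale, beside 0.0077 for all genes. Without replicate 2 of the Dox group 19 fell and the median was −0.11. By role these were 2 of 7 alpha and 3 of 7 beta subunits, 3 of 6 ATPases, 6 of 11 non-ATPase subunits, 1 core assembly chaperone, 1 activator and PSMC3IP.

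PSMC3IP had 32.8, 31.7, 34.3 and 31.5 CPM with DMSO and 28.2, 26.4, 30.1 and 27.8 with Dox (log2 −0.23, SE 0.061, edgeR adjusted p = 0.00438). Among proteasome genes proper, the core chaperone PSMG1 (chromosome 21, 39174769 to 39183851, GRCh38) went from 73.1, 76.9, 80.9 and 79.1 to 64.9, 69.0, 69.1 and 67.1 CPM, a log2 difference of −0.20 (SE 0.053, edgeR adjusted p = 0.00314). The ATPase PSMC3 went from 208, 215, 209 and 209 to 186, 189, 194 and 177 CPM, a log2 difference of −0.18 (SE 0.040, edgeR adjusted p = 0.000526). In all 3 the Dox libraries lay below every DMSO library, as the rule for listing them required. Of the 17 genes called, 10 were without overlap. PSMB6 (−0.18), PSMA4 (−0.16), PSMD1 (−0.16), PSMD4 (−0.16), PSMC1 (−0.15) and PSMC5 (−0.15) came next on the log2 scale. The remaining genes called were PSMB4, PSMB2, PSMA7, PSMD12, PSMD14, PSME3, PSMD3 and PSMD11, between −0.12 and −0.10. Of these, PSMD12 and PSMD3 were not called without Dox replicate 2. PSMD12 was also lost without DMSO replicate 1 or 3 and with the compared groups alone (adjusted p 0.0516 to 0.0886 over these 4 alternatives). Of 14 alternatives, PSMD3 was lost in 5, PSMB4 in 4, PSMA7 and PSMD14 in 3, and PSMC1 and PSMD11 in 1.

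In the sgAAVS1 line Dox lowered 4 of the 45 genes and raised 1, beside 8.68% of all genes lower and 7.25% higher (15.9% in either direction). The share of the 45 called, 11.1%, was below that of all genes, and the share that fell was near it. The median was −0.03. The gene with the largest fold was PSMC5, an ATPase of the cap on chromosome 17 (63827152 to 63832026, GRCh38). It had 207, 205, 213 and 206 CPM with DMSO and 175, 167, 174 and 170 with Dox, without overlap (log2 −0.28, SE 0.035, edgeR adjusted p = 6.68e-09). The inhibitor PSMF1 went from 225, 226, 232 and 218 to 205, 202, 214 and 210 CPM (log2 −0.12, SE 0.034, edgeR adjusted p = 0.0116). PSMC3IP went from 32.4, 34.3, 33.3 and 34.8 to 31.0, 28.9, 30.5 and 28.4 CPM (log2 −0.18, SE 0.061, edgeR adjusted p = 0.0292). Both fell, as did the nuclear activator PSME3 (log2 −0.10, from 304 ± 6.23 to 284 ± 5.13 CPM). Their Dox libraries all lay below those with DMSO. Without replicate 2 of the Dox group PSMF1 no longer passed (adjusted p = 0.0577), and PSME3 was lost without DMSO replicate 3 or Dox replicate 4. PSMC3IP was lost when any of 4 libraries was left out (adjusted p 0.0675 to 0.0923). PSMD14 rose from 149, 151, 167 and 168 to 172, 173, 166 and 174 CPM (log2 0.11, SE 0.039, edgeR adjusted p = 0.0431), and here the groups overlapped; PSMD14 was not called with an offset for GC content and length, or when any of 5 of the 8 libraries was left out (DMSO replicate 1 or 2, or Dox replicate 1, 2 or 4). PSMC3IP, PSMC5 and PSME3 are the genes that fell here and in the sgIGF2BP2 line (75.0% of the 4 and 17.6% of the 17). The overlap over all genes was not counted. Every Dox group received the drug together with the cut, and these cannot be told apart.

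PSMC5 lies on the long arm of chromosome 17 distal to SPOP, the gene of a ubiquitin ligase adaptor, whose level fell by 1.68 on the log2 scale with Dox in the sgAAVS1 line. Over the 250 tested genes of that stretch the median difference was −0.17, 221 were lower in sign and 130 were called lower. PSMD12, a non-ATPase subunit of the cap, lies in the same stretch, at 67337916 to 67366627. It had 225, 212, 221 and 231 CPM with DMSO and 219, 215, 208 and 220 with Dox, which overlap, and was not called (log2 −0.04, edgeR adjusted p = 0.50). With an offset for GC content and length, PSMD12 was called at −0.12 (adjusted p = 0.00253). In the other 2 lines the median of the stretch after Dox was 0.02 and 0.01. PSMC5 also fell with Dox in the sgIGF2BP2 line (205, 216, 213 and 210 against 186, 199, 186 and 191 CPM). In the sgIGF2BP3 line PSMC5 had 202, 198, 203 and 207 against 198, 196, 199 and 201 CPM and was not called (log2 −0.03).

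In the sgIGF2BP3 line Dox lowered 1 of the 45 genes (2.22%) and raised 0, and the median was −0.04. Of all genes 1.01% were lower, 1.64% higher and 2.64% called in either direction, so the share called was near the background. The gene called was PSMG3, a core assembly chaperone on the short arm of chromosome 7 (1567330 to 1571005), distal to IGF2BP3. PSMG3 had 37.5, 37.6, 41.1 and 38.1 CPM with DMSO and 35.3, 30.9, 31.0 and 35.6 with Dox, without overlap (log2 −0.21, SE 0.062, edgeR adjusted p = 0.0416). It was lost when any of 6 of the 8 libraries was left out (adjusted p 0.0535 to 0.153). The 79 tested genes distal to IGF2BP3 on that arm had a median of −0.15 after Dox in this line, with 20 called lower and 0 higher, and medians of 0.0022 in sgAAVS1 and 0.03 in sgIGF2BP2. PSMG3 itself did not pass in those lines (log2 −0.12 and −0.06). DESeq2 and a fit of the compared groups alone called PSMD14 as a second gene. PSMD2, on chromosome 3 within 2 Mb of IGF2BP2, had a log2 difference of −0.02 with Dox in the sgIGF2BP2 line, the same as the median of the 34 tested genes of that stretch.

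**Figure D3:**
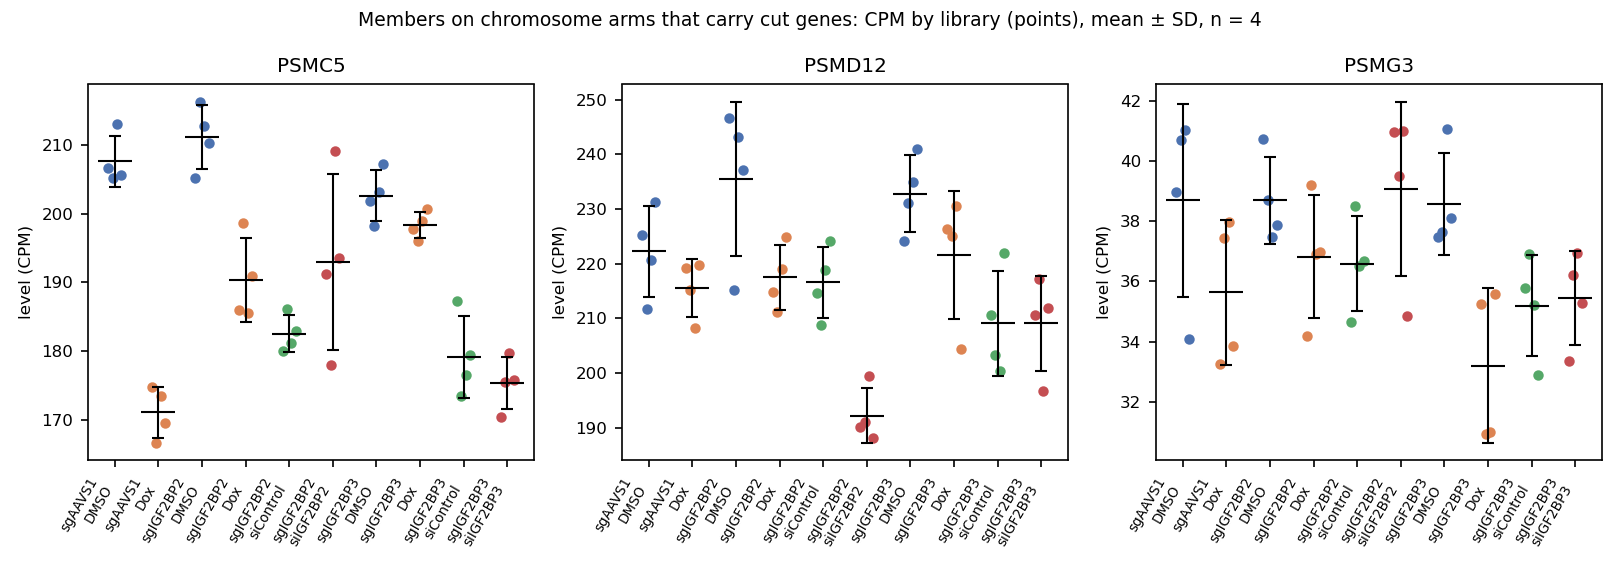
Levels in CPM of PSMC5, PSMD12 and PSMG3 in each library (points) of the 10 groups, with the group mean and SD (bars, n = 4); axes do not start at 0. PSMC5 is lowest in the Dox-treated sgAAVS1 libraries, at 167 to 175 CPM, and PSMG3 in the Dox-treated sgIGF2BP3 libraries, at 30.9 to 35.6.

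The Dox effects themselves were compared between lines by an interaction term, with the sgAAVS1 line as the shared reference. The effect in sgIGF2BP2 was lower than in sgAAVS1 for 4 of 45 genes and higher for 0, beside 2.97% of all genes lower, 4.01% higher and 6.97% in either direction. PSMA4, an alpha subunit on chromosome 15, had 211, 202, 207 and 215 CPM with DMSO and 215, 221, 228 and 226 with Dox in sgAAVS1. In sgIGF2BP2 it had 239, 211, 221 and 215 against 184, 206, 194 and 205. The difference of the 2 effects was −0.26 on the log2 scale (SE 0.059, edgeR adjusted p = 0.0032). For PSMD14 it was −0.23 (adjusted p = 0.00539), with 181, 165, 172 and 163 CPM against 156, 161, 152 and 158 in sgIGF2BP2 beside the sgAAVS1 values given above. PSMC2 (−0.18) and PSMD1 (−0.15) completed the list, and without replicate 2 of the Dox-treated sgIGF2BP2 group PSMB2 and PSMB4 were added to make 6. PSMD1 had 260, 253, 255 and 243 CPM with DMSO and 221, 231, 225 and 224 with Dox in sgIGF2BP2, without overlap. Its adjusted p of 0.0428 for the difference of the effects went above 0.05 under 14 of 22 alternatives, and that of PSMC2 under 11.

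For sgIGF2BP3 against sgAAVS1, the Dox effect was lower for 6 of 45 genes and higher for 1, beside 3.25% of all genes lower, 4.53% higher and 7.78% in either direction. The 6 were PSMC6 (−0.25), PSMD14 (−0.23), PSMD10 (−0.22), PSMA4 (−0.19), PSMD6 (−0.18) and PSMC2 (−0.17) on the log2 scale. PSMD14 went from 166, 167, 169 and 166 to 160, 151, 151 and 152 CPM in sgIGF2BP3. PSMD10 went from 57.9, 58.1, 62.6 and 59.9 to 56.5, 52.3, 55.8 and 53.3 there, and from 56.2, 52.7, 56.8 and 57.3 to 60.4, 54.9, 61.2 and 60.4 in sgAAVS1. PSMC2 went from 177, 171, 177 and 175 to 166, 166, 164 and 161 in sgIGF2BP3, and from 170, 185, 186 and 174 to 177, 199, 195 and 188 in sgAAVS1. Of 22 alternatives, PSMC2 and PSMD6 were not called in 12, PSMD10 in 11 and PSMA4 in 10, mostly where 1 library was left out. With an offset for GC content and length the difference was −0.05 for PSMC2 and −0.13 for PSMD10, and PSMC6 was not called either. None of PSMC2, PSMC6, PSMD6 and PSMD10 passed the test of Dox within either line alone. PSMC5 was the gene with the higher effect (0.25, SE 0.049, edgeR adjusted p = 0.000473). With that offset 2 of the 45 genes, PSMC5 and PSMD14, passed in place of 7. Both interaction tests rest on the same 8 sgAAVS1 libraries, so the genes they share, PSMA4, PSMD14 and PSMC2, are not independent of each other.

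Silencing IGF2BP2 by siRNA, set against siControl in the same line, lowered 11 of the 45 genes and raised 2, beside 18.4% of all genes lower, 18.4% higher and 36.8% in either direction. In this fit the share called among the 45, 28.9%, was below that of all genes. The median was −0.04 on the log2 scale. Without replicate 3 of siIGF2BP2, 18 fell and 2 rose and the median was −0.07. With an offset for GC content and length 20 fell and 2 rose. Beside these, 23.2% of all genes were lower and 40.2% were called in either direction. The share called among the 45 was then above that of all genes. Among the 4 activators 1 rose and 1 fell.

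PSME1, a subunit of the interferon-inducible activator ring, rose from 84.7, 81.1, 86.7 and 82.7 to 97.2, 99.2, 109 and 106 CPM (log2 0.30, SE 0.044, edgeR adjusted p = 1.21e-07). PSME4, a large single-chain activator of the nucleus, fell from 177, 170, 168 and 169 to 142, 139, 134 and 148 CPM (log2 −0.28, SE 0.035, edgeR adjusted p = 6.82e-10). For both the 2 groups did not overlap, and the siIGF2BP2 libraries lay outside the range of all other groups. PSME2, the partner of PSME1 in the ring, and PSME3 did not pass. PSME1 shares exon bases with EMC9 and PSME4 with ACYP2 on the opposite strand, and the strand setting of the counting is not given in the sources used here.

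In the cap, PSMD7 rose from 84.0, 80.7, 86.2 and 86.0 to 90.3, 93.0, 103 and 88.9 CPM (log2 0.16, SE 0.040, edgeR adjusted p = 0.00139). It is the partner of PSMD14 in the deubiquitinating dimer, and PSMD14 did not pass (log2 −0.06). PSMD5, a chaperone of the cap's ATPases, fell from 109, 110, 113 and 103 to 94.6, 97.5, 94.2 and 97.5 CPM (log2 −0.18, SE 0.041, edgeR adjusted p = 0.000254). PSMD12 fell from 215, 209, 219 and 224 to 190, 191, 199 and 188 CPM (log2 −0.17, SE 0.039, edgeR adjusted p = 0.000252). None of these overlapped between groups, as the rule for listing them required. Of the 13 genes called, 9 were without overlap. PSMD11, PSMD3 and PSMD1 fell by 0.14, 0.13 and 0.12, PSMC4 by 0.11 and the inhibitor PSMF1 by 0.14. In the core, PSMB6 (−0.17), PSMB5 (−0.12) and PSMA7 (−0.10) fell with overlapping libraries. PSMB5 and PSMA7 were each lost in 5 of 14 alternatives. Replicate 3 was the highest of its group for each: PSMB5 had 185, 187, 224 and 197 CPM, PSMB6 130, 141, 161 and 147, and PSMA7 485, 490, 566 and 482.

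**Figure D4:**
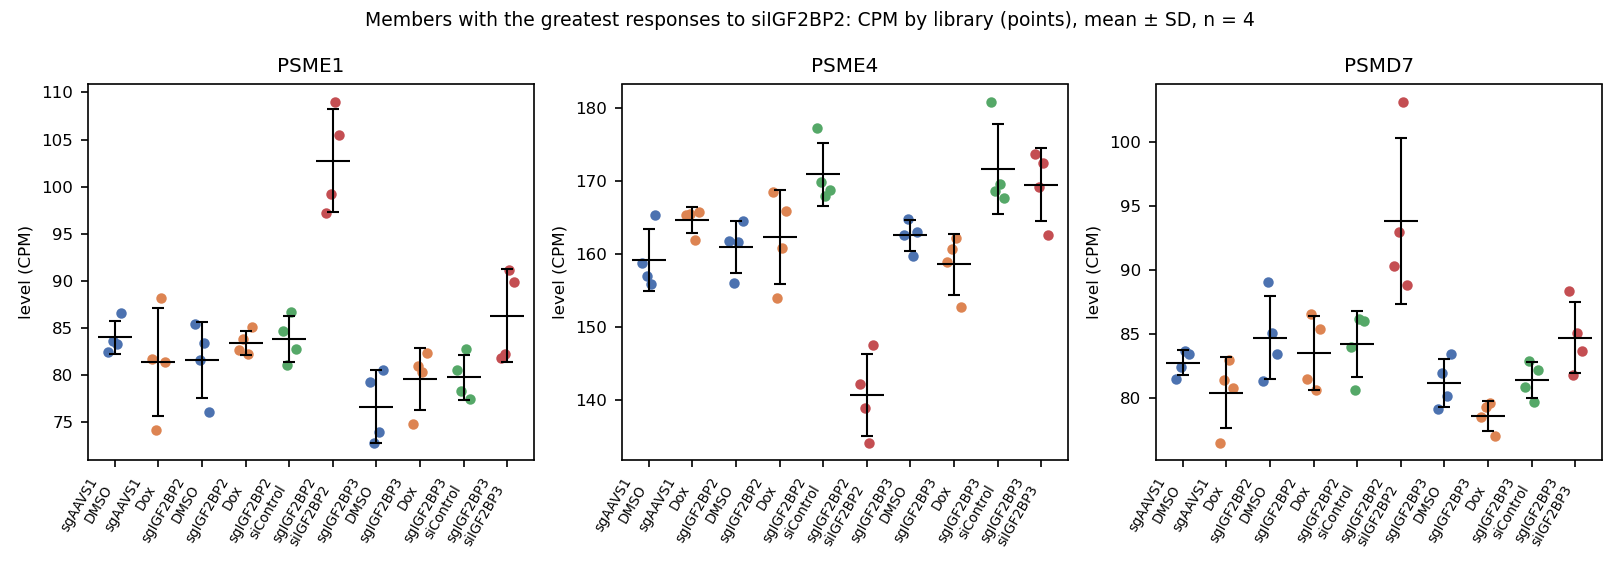
Levels in CPM of PSME1, PSME4 and PSMD7 in each library (points) of the 10 groups, with the group mean and SD (bars, n = 4); axes do not start at 0. The siIGF2BP2 libraries are highest for PSME1 (97.2 to 109 CPM) and lowest for PSME4 (134 to 148), and for PSMD7 they reach 103 CPM.

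The siRNA and Dox comparisons of the sgIGF2BP2 line share no library. Of the 11 genes lower with siIGF2BP2 and the 17 lower with Dox, 6 were the same (54.5% and 35.3%): PSMA7, PSMB6, PSMD1, PSMD3, PSMD11 and PSMD12. Without the 2 libraries that stood apart, 7 were the same, of 18 with siIGF2BP2 (38.9%) and 19 with Dox (36.8%): PSMA3, PSMA4, PSMA7, PSMB6, PSMD1, PSMD11 and PSMD14. The overlap over all genes was not counted, so neither overlap can be set against a background. PSME4 and PSMD5, lower with siIGF2BP2, had log2 differences of 0.01 and −0.06 with Dox, and PSME1 and PSMD7, higher with siIGF2BP2, of 0.03 and −0.02.

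Silencing IGF2BP3 called 0 of the 45 genes by edgeR at an adjusted p under 0.05, and 0 by DESeq2. Of all genes edgeR called 2.34% (1.4% lower and 0.936% higher). Of the 45, 10 had an unadjusted p under 0.05. The share of all genes at that threshold was not counted, so the 10 cannot be set against a background. The median was −0.04 on the log2 scale, and siIGF2BP3 libraries of the sgIGF2BP3 line held 7974 to 8130 CPM in sum, below the 8204 to 8317 CPM of its siControl. PSMB6 came nearest, at 159, 174, 176 and 159 CPM with siControl and 150, 149, 150 and 159 with siIGF2BP3 (log2 −0.14, SE 0.046, edgeR adjusted p = 0.0989). Without a filter on low counts PSMB6 was called, and with an offset for GC content and length PSMB6, PSMB7, PSMD3 and PSMD8 were called lower.

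The 2 siRNA effects differed for 4 of the 45 genes by an interaction term, beside 18.7% of all genes (9.88% higher and 8.82% lower). Relative to siIGF2BP2, the siIGF2BP3 effect was higher for PSME4 (0.26, SE 0.049, edgeR adjusted p = 3.55e-05), PSMD5 (0.22, adjusted p = 0.00337) and PSMD12 (0.17, adjusted p = 0.0174). It was lower for PSME1 (−0.18, adjusted p = 0.033), which had 80.5, 78.3, 82.7 and 77.5 CPM with siControl and 81.8, 82.3, 91.2 and 89.9 with siIGF2BP3. This difference for PSME1 was not called in 9 of 22 alternatives, which were the GC and length offset and the leaving out of any of 8 of the 16 libraries, replicate 3 of siIGF2BP2 among them. Without that replicate 5 genes differed, PSMA7, PSMB2, PSMD5, PSMD12 and PSME4. PSME4 had 181, 169, 170 and 168 CPM against 174, 169, 172 and 163 in the sgIGF2BP3 line. PSMD5 had 106, 106, 111 and 109 against 114, 110, 114 and 106.

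Between lines given DMSO, 0 of the 45 genes differed from sgAAVS1 in sgIGF2BP2 and 0 in sgIGF2BP3 by edgeR, and 0 by DESeq2, beside 0.0175% of all genes in each. At an unadjusted p under 0.05 there were 3 and 4, and the share of all genes at that threshold was not counted. The smallest p belonged to PSME1, at 79.3, 72.8, 73.9 and 80.6 CPM in sgIGF2BP3 and 82.5, 83.6, 83.4 and 86.6 in sgAAVS1 (log2 −0.13, edgeR adjusted p = 0.223). Both comparisons share the sgAAVS1 libraries.

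Other genes of the pathway, from lists of proteasome genes without a PSM symbol (11 tested), the NFE2L1 route (10) and ubiquitin with its E1 enzymes and shuttles (12), were read from the same fit. With siControl against DMSO, 6 of the 11 proteasome genes fell and 1 rose in each line, beside 18.4% and 19.4% of all genes called in either direction. In the sgIGF2BP2 line the cap subunits SEM1 (log2 −0.21) and ADRM1 (−0.21), the core chaperone POMP (−0.20), the cap-bound TXNL1 (−0.22), AKIRIN2 (−0.21), which brings proteasomes into the nucleus, and ZFAND5 (−0.13) fell. The ubiquitin ligase UBE3C, which extends ubiquitin chains at the cap, rose (0.13). In the sgIGF2BP3 line SEM1 (−0.24), POMP (−0.17), TXNL1 (−0.30), AKIRIN2 (−0.31), ADRM1 (−0.10) and UCHL5 (−0.13) fell and UBE3C rose (0.10). POMP stood at 159 ± 5.66 and 139 ± 4.18 CPM in the sgIGF2BP2 line and at 157 ± 3.00 and 139 ± 2.03 CPM in the sgIGF2BP3 line. Of the NFE2L1 route, 2 rose and 3 fell in the sgIGF2BP2 line and 1 rose and 1 fell in the sgIGF2BP3 line, against the same shares of all genes, so the 2 of 10 in the latter were near the background. The partner MAFG rose (0.18 and 0.25) and MAFF fell (−0.27 and −0.19) in both, and NFE2L1 itself passed in neither. Among ubiquitin and its carriers, 4 of 12 fell and 1 rose in the sgIGF2BP2 line, and 2 fell and 0 rose in the sgIGF2BP3 line.

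With siIGF2BP2, 5 of the 11 proteasome genes fell and 1 rose, beside 36.8% of all genes called, 18.4% in each direction. UBE3C fell from 204 ± 3.41 to 110 ± 3.83 CPM (log2 −0.90, SE 0.033, edgeR adjusted p = 4.34e-34), a larger difference than any of the 45 genes showed in any comparison. With Dox in the same line UBE3C was not called. The adaptor ECPAS fell from 219 ± 6.66 to 183 ± 11.2 CPM (−0.26), and the chaperone PAAF1 rose from 12.8 ± 1.82 to 16.3 ± 1.74 CPM (0.33). With siIGF2BP3, UBE3C fell by 0.12 and the segregase VCP by 0.14, and no other gene of these lists was called. In the NFE2L1 route, 0 of 10 genes rose and 3 fell with siIGF2BP2: BACH1 (−0.33), NGLY1 (−0.31) and DDI2 (−0.31). Of ubiquitin and its carriers, 1 of 12 rose and 4 fell. Neither share was far from the 36.8% of all genes. Those called included the E1 enzymes UBA1 (0.17) and UBA6 (−0.39).

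With Dox in the sgIGF2BP2 line, 4 of the 11 proteasome genes fell and 2 rose, beside 10.4% of all genes lower and 20.4% in either direction. The deubiquitinase UCHL5 fell from 86.9 ± 2.48 to 72.7 ± 0.834 CPM (log2 −0.26) and ECPAS from 227 ± 5.10 to 200 ± 2.02 CPM (−0.18). USP14 (−0.15) and ADRM1 (−0.10) also fell, and AKIRIN2 (0.20) and ZFAND5 (0.13) rose. In sgAAVS1 AKIRIN2 rose (0.20) and UBE3C fell (−0.09), beside 15.9% of all genes called. In sgIGF2BP3 edgeR called 0 of the 11, beside 2.64%. From the NFE2L1 route 2 of 10 rose in sgAAVS1, 3 in sgIGF2BP2 and 1 in sgIGF2BP3, and 0 fell. The shares of all genes higher were 7.25%, 10% and 1.64%. Among ubiquitin and its carriers, 3 of 12 fell in sgAAVS1, 3 fell and 1 rose in sgIGF2BP2, and 0 were called in sgIGF2BP3. MAFF rose with Dox in sgAAVS1 (from 39.7 ± 3.90 to 54.8 ± 2.75 CPM, log2 0.46) and in sgIGF2BP2 (from 42.5 ± 3.62 to 55.1 ± 3.48 CPM, log2 0.38), and MAFG in sgIGF2BP2 (0.14) and sgIGF2BP3 (0.17).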

How the data were processed

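Gene counts for 40 libraries, 4 in each of 10 groups, were used as the authors deposited them (unit: counts). The libraries were single-read, from poly(A)-selected, alkylated RNA with a directional kit, per the labels' protocols. Per the submitters' processing notes, bcl2fastq 2.20.0.422 and STAR 2.7.5c were used with hg38; the counting tool, annotation and strand setting are not given in the sources used here. Identifiers were matched to GENCODE 29 (19847 of 19962).

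All 40 libraries were fitted together with edgeR 4.0.16 (R 4.3.3; TMM scaling, filterByExpr, quasi-likelihood test, limma 3.58.1), with Benjamini-Hochberg adjustment over the 11428 genes tested and a threshold of 0.05; SE was derived from the F statistic. The biological coefficient of variation was 3.79%. Levels (CPM) are counts divided by the TMM-scaled library size. The fit was tested on simulated data. Alternatives were DESeq2 1.42.0, RLE scaling, no filter, a replicate block, a GC and length offset, the compared groups alone and leaving out each library. An exact permutation test of 4 against 4 libraries can reach 0.0286 at the least and was not used. Members and gene lists were chosen with earlier results of these data known. Genes given by library were, per comparison, up to 3 called in each direction with the largest change and no overlap. Their lack of overlap was thus fixed by the choice and is no further evidence. Those on the 2 chromosome stretches and those of highest and lowest level per length were also given. Others were named to show a role, after their values were seen. Labels number the replicates, and correlations between same-numbered libraries were weak (36 from −0.0896 to 0.0966), so no pairing was used. In 13 of the 36 the same-numbered library was the best match. This held for every pair of siControl and DMSO in the sgIGF2BP2 line (0.0437 to 0.0924, other pairs −0.0214 on average). It also held for every pair of sgIGF2BP3 and sgAAVS1 with DMSO (0.0219 to 0.0966, other pairs −0.0159). A weak pairing there was met only by the replicate block.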

Additional observations from a re-analysis of the deposited data

Results flagged for a closer look

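Of 230 sets of 4 libraries (named genes and the summed level, each in 10 groups), 11 held a library that lay far from the other 3, and chance gives about 1 in 20. In the siIGF2BP2 group replicate 3 was such a library for PSMA4 (217 CPM, others 180 to 186) and PSMC3 (202, others 171 to 172), and its summed level was also the highest of its group. In the Dox-treated sgIGF2BP2 group replicate 2 was high for PSMA1 (44.4 CPM, others 39.8 to 40.3), and in the same line with DMSO replicate 2 was high for PSMC3 (215, others 208 to 209). In the Dox-treated sgAAVS1 group replicate 2 was low for PSMD10 (54.9 CPM, others 60.4 to 61.2) and replicate 3 for PSME4 (162, others 165 to 166). In the sgIGF2BP3 line replicate 1 was high for PSMC4 with DMSO (124 CPM, others 117 to 118), for PSMD14 with Dox (160, others 151 to 152) and for PSME4 with siControl (181, others 168 to 170). With siIGF2BP3, replicate 3 was high for PSMA6 (7.96 CPM, others 6.90 to 6.98) and replicate 4 for PSMC6 (57.9, others 53.4 to 54.0).

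The Dox effect differed from that in the sgAAVS1 line by edgeR's interaction test. In the sgIGF2BP2 line the log2 differences were −0.26 for PSMA4, −0.23 for PSMD14, −0.18 for PSMC2 and −0.15 for PSMD1. In the sgIGF2BP3 line they were −0.25 for PSMC6, −0.23 for PSMD14, −0.22 for PSMD10, −0.19 for PSMA4, −0.18 for PSMD6, −0.17 for PSMC2 and 0.25 for PSMC5. The siIGF2BP3 effect less the siIGF2BP2 effect was 0.26 for PSME4, 0.22 for PSMD5, 0.17 for PSMD12 and −0.18 for PSME1.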

How the results depend on the processing

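The counts of genes called stayed within 1.5 times of the main count in every alternative for siControl against DMSO (18 to 27 called in the sgIGF2BP2 line, 16 to 25 in the sgIGF2BP3 line) and for Dox in the sgIGF2BP2 line (13 to 24). With a replicate block 18 genes were called for Dox in sgIGF2BP2, 26 and 19 for siControl, 13 for siIGF2BP2 and 0 for siIGF2BP3.

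Without a low-count filter 3 genes were called for Dox in sgAAVS1 and 1 for siIGF2BP3. With the GC and length offset 22 were called for siIGF2BP2, 4 for siIGF2BP3 and 2 for the Dox difference of sgIGF2BP3 from sgAAVS1 (median 0.0033); the medians were 0.050 for the difference of the siRNA effects and −0.0059 for the sgIGF2BP3 line against sgAAVS1. DESeq2 called 2 genes for Dox in sgIGF2BP3. With the compared groups alone 2 were called there, 2 for siIGF2BP3 and 2 for the Dox difference of sgIGF2BP2.

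Leaving out each library gave 2 to 6 for Dox in sgAAVS1 (median −0.0385 to −0.0167; fewest without Dox replicate 2 or 4, and 3 without DMSO replicate 2), 0 to 1 in sgIGF2BP3 (0 without any single DMSO replicate or Dox replicate 2 or 3), 10 to 20 for siIGF2BP2 (most without its replicate 3) and 2 to 6 for the difference of the siRNA effects (median −0.0056 to 0.0436; fewest without siIGF2BP3 replicate 2). For the Dox differences from sgAAVS1 it gave 2 to 6 in sgIGF2BP2, with 2 called without sgAAVS1 Dox replicate 2 or 3, or DMSO or Dox replicate 1 or 3 of the sgIGF2BP2 line, and 3 to 7 in sgIGF2BP3 (median −0.0184 to 0.0050), with 3 or 4 called without sgAAVS1 DMSO replicate 1, 2 or 3 or Dox replicate 3 or 4, or sgIGF2BP3 DMSO replicate 3 or 4 or Dox replicate 2 or 4. The median was −0.115 to −0.0917 for siControl in sgIGF2BP3 and −0.0347 to −0.0159 for that line against sgAAVS1. The causes were not tested. For genes named singly, 764 alternatives gave 686 with the same sign and call, 60 that no longer passed, 4 that newly passed and 14 of the opposite sign, all for PSMD12 and PSMG3 where neither value passed. With the GC and length offset PSMG3 stood at −0.0011 for siIGF2BP2, −0.0016 for siIGF2BP3 and −0.0019 for the Dox difference of sgIGF2BP2, and PSMD12 at 0.0073 and 0.108 for the Dox differences of sgIGF2BP2 and sgIGF2BP3. Leaving out each library, PSMD12 ranged from −0.0464 to 0.0119 for the latter and from −0.0177 to 0.0313 for siIGF2BP3, and PSMG3 from −0.0253 to 0.0365 for siIGF2BP3. Wells of 1 line per guide limit what the p-values cover, and PSMA2, PSMB10 and PSMD9 are limited by low counts.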

Other observations

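PSMB8 and PSMB9 encode interferon-inducible catalytic subunits of the immune core, which replace PSMB5 and PSMB6 respectively, and they were kept out of the set above. PSMB8 rose with Dox in the sgAAVS1 line from 10.2 ± 0.837 to 12.5 ± 0.939 CPM (mean ± SD, n = 4; log2 0.29, SE 0.0929, edgeR adjusted p = 0.0237). PSMB9 rose with siIGF2BP2 from 3.75 ± 0.320 to 5.29 ± 0.928 CPM (log2 0.50, SE 0.147, edgeR adjusted p = 0.00503). Neither was called in another comparison, and no interaction term passed for either.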
